A study of Mus musculus with 12 samples.

Results

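The nuclear-encoded subunits of respiratory complex I were followed in the gastrocnemius, a calf muscle, of mice whose right sciatic nerve had been cut. Genes were taken from the 2 deposited expression tables, 1 per strain, when their symbol began with Ndufa, Ndufb, Ndufc, Ndufs or Ndufv followed by a digit, a rule that used no measured value. It found 39 members among the 25094 genes of each table. Of these, 35 are structural subunits, and the other 4 are Ndufa4, now assigned to complex IV, its paralogue Ndufa4l2, and the copies Ndufa11b and Ndufb4c, which lay near 0. The 4 groups were right legs of male wild-type C57BL/6 mice, left legs of the same strain, right legs of male wild-type BALB/c mice and left legs of that strain, with 3 libraries each. In the right leg the nerve was cut, and both ends were turned back and sewn to nearby muscle; the muscle was taken 2 weeks later. The labels call the left leg healthy, and although the protocol mentions a sham operation, no label says that a left leg had one. The design text of the series is about α7nAChR, a nicotinic acetylcholine receptor, and how denervation bears on muscle function, and all libraries used here are wild type. No age is given for the mice. Nothing in the labels ties each library to a mouse of its own, so p-values reflect the spread among these libraries alone, and that spread may be technical.

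Complex I takes electrons from NADH in the mitochondrial matrix, passes them through a flavin and a chain of iron-sulfur clusters to ubiquinone, and pumps protons across the inner membrane. Its matrix arm holds the NADH and ubiquinone sites, and its membrane arm holds the proton pump, whose core is made in the mitochondrion. Accessory subunits surround the core and are needed for assembly and stability. Skeletal muscle loses mass when its nerve is cut, and oxidative metabolism is one of the functions known to change in denervated muscle. Of the structural subunits, 16 lie in the matrix arm and 19 in the membrane arm, and 7 are nuclear core subunits while 28 are accessory. The 7 mitochondrially encoded core subunits were looked for under symbols that begin with mt-Nd. The search found 0 of them, so their changes could not be read. Ndufb1 was not analysed here.

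The values are RPKM as deposited, reads in a gene per unit of transcript length and of library size. Library totals used for scaling were 18132650 to 19282900 reads, and the members held 85947 to 133007 reads of a library. A change is the right-leg minus the left-leg mean of log2(RPKM + 0.5), given with its SE, a scale that understates the change of low genes. Tests used limma, with Benjamini-Hochberg adjusted p-values over every tested gene of a table, and a gene was called under 0.05. Across all tested genes the median change was 0.52 in C57BL/6 and 0.38 in BALB/c as deposited, and 0.021 and 0.016 after median-of-ratios scaling, which sets libraries level on their typical gene. Relative changes below have the median change of all tested genes subtracted. Markers of muscle fibres summed to 12.9% to 14.5% of all RPKM in the C57BL/6 right legs, against 27.1% to 28.5% in the left, and to 10.3% to 12.6% in the BALB/c right legs, against 20.6% to 25.7% in the left. Of these 7 markers, none at 0, 6 were called lower and 1 higher in C57BL/6, and 2 lower and 1 higher in BALB/c as deposited. After median-of-ratios scaling 6 were lower and 1 higher in C57BL/6, and 2 lower and 0 higher in BALB/c. Of all tested genes, 8.56% were called lower in C57BL/6 and 7.67% in BALB/c as deposited, and 26.4% and 19% after that scaling. The 5 slow-fibre markers summed to 987 to 1679 RPKM in the C57BL/6 right legs, against 32.8 to 47.9 RPKM in the left, and all 5 were called higher under both scalings. In BALB/c they summed to 2126 to 4060 RPKM in the right legs, against 255 RPKM in left library 1 and 2108 and 1990 RPKM in left libraries 2 and 3, and 2 of 5 were called higher under both scalings. All 7 macrophage markers were called higher in C57BL/6 under both scalings, and 6 of 7 in BALB/c as deposited and 4 of 7 after median-of-ratios scaling; of all tested genes 63.6% were called higher in C57BL/6 and 42.5% in BALB/c as deposited, and 28.2% and 21.8% after that scaling. Of 5 fibroblast markers, 5 were called higher in C57BL/6 as deposited and 4 after that scaling. In BALB/c 2 were higher and 1 lower as deposited, and 0 and 1 after it. Of 5 endothelial markers, 0 were called higher in either strain. As deposited 2 of them were lower in C57BL/6 and 1 in BALB/c, and after that scaling all 5 in each. The part of these cell types in the members' values was not tested, and in whole muscle fewer cells of a type and less RNA per cell cannot be told apart.

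BALB/c right library 2 stood apart from right libraries 1 and 3. Members averaging 1 RPKM or more lay 0.54 above the mean of the other 2 right libraries at the median on the log2 scale. All genes averaging 1 RPKM or more lay 0.15 below it. The gap ran with transcript length. Among all genes of that level, those under 700 bases lay 0.34 above the other 2 and those of 700 to 1500 bases 0.18 above. Those of 1500 to 3000 bases lay 0.10 below and those over 3000 bases 0.35 below. The members' transcripts are short, with a median of 709 bases, against about 2590 bases over all genes expressed at 1 RPKM or more. Its erythroid markers summed to 17553 RPKM, against 7947 and 276 RPKM in right libraries 1 and 3 and 172 to 1260 RPKM in the left legs. The part of length or blood in the results was not tested. In BALB/c the counts of called members and some single-gene changes are given with and without that library. The counts for the arms, the core subunits and the other gene lists include it, as do the remaining single-gene changes.

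Promoters are shown for the member with the largest rise, Ndufb7, and for 3 others whose windows hold known motifs of mitochondrial gene regulators, so that the results can be read beside sequence. They run from 250 bases before to 50 after the RefSeq start (GRCm38.p6), 5′ to 3′ along the gene, with matches in capitals on either strand. Ndufb7 is at chr8:83566508-83566807 (plus strand), Ndufs4 at chr13:114388045-114388344 (minus), Ndufb4 at chr16:37654319-37654618 (minus) and Ndufa8 at chr2:36049289-36049588 (minus).
Ndufb7: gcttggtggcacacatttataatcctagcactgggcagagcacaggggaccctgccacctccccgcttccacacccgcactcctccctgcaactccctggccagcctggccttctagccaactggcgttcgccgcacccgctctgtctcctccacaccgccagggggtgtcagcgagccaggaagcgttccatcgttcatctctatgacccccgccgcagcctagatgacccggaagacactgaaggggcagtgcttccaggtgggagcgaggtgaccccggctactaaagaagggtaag
Ndufs4: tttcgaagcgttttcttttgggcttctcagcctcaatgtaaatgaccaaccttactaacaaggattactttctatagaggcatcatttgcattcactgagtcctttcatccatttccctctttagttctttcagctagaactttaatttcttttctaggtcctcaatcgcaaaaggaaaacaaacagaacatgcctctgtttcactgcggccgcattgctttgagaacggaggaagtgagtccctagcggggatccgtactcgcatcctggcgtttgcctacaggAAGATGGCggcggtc
Ndufb4: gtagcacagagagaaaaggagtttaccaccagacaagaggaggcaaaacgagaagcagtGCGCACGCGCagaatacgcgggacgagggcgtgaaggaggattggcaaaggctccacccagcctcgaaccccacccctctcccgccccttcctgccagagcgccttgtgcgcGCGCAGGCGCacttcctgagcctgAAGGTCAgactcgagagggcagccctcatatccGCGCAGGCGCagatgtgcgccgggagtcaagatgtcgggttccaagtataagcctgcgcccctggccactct
Ndufa8: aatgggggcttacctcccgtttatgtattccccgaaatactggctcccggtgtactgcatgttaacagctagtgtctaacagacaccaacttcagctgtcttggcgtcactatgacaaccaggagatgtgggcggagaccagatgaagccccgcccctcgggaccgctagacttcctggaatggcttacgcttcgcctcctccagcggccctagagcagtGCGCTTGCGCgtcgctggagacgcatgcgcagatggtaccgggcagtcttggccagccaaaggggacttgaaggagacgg
The letters searched on both strands were GCGCA and GCGC with any 1 base between them for NRF1, AAGATGGC for YY1, AAGGTCA for the oestrogen-related receptors and CCGGAAGT for ETS factors such as GABP. The capitals mark YY1 in Ndufs4, 3 NRF1 matches and 1 oestrogen-related receptor match in Ndufb4, and NRF1 in Ndufa8, and the Ndufb7 window held none of the 4. No marked match overlaps another. Of 39 members, 32 matched the promoter table, with 34 windows of 300 bases. NRF1 letters were in 8 windows (23.5%) and in 4.60% of all 32851 windows, and YY1 letters in 7 (20.6%) and in 2.75% of all windows. The NRF1 windows were those of Ndufa5, Ndufa6, Ndufa8, Ndufa11, Ndufb4, Ndufs5 and Ndufs6. Ndufa6 and Ndufs5 had changes above that of the median tested gene in both strains, and the rest of these genes below it. No link between letters and changes was tested. The oestrogen-related receptor letters were in 3 windows (8.82%, against 4.72% of all) and the ETS letters in 1 (2.94%, against 3.89% of all). A match describes these letters and is not a binding site.

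The right-against-left change of most members lay below that of the median tested gene in both strains. The median relative change was -0.31 in C57BL/6 and -0.32 in BALB/c, and 31 of the 39 members changed by less than the median tested gene, sign included, in each strain. By right library, the member median minus that of all tested genes was -0.29, -0.25 and -0.31 in C57BL/6. In BALB/c it was -0.60, 0.075 and -0.55, and the median relative change without right library 2 was -0.58. Of the members, 29 had changes below that of the median tested gene in both strains and 6 above it in both, namely Ndufa2, Ndufa6, Ndufa7, Ndufb7, Ndufs4 and Ndufs5. Members averaging 1 RPKM or more numbered 37. The other 2, although they passed the filter of 0.1 RPKM as all 39 did, were Ndufa11b, at 0 to 1.80 RPKM over the 12 libraries, and Ndufb4c, at 0 to 0.455 RPKM. The changes of those 37 members in the 2 strains had a Pearson r of 0.75 across genes, against 0.83 over all 14165 genes tested in both. The floors differ, 1 RPKM for these members and 0.1 RPKM for all genes, so the gap between the 2 values is not read. Both are descriptions in which genes are not independent replicates.

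**Figure D1:**
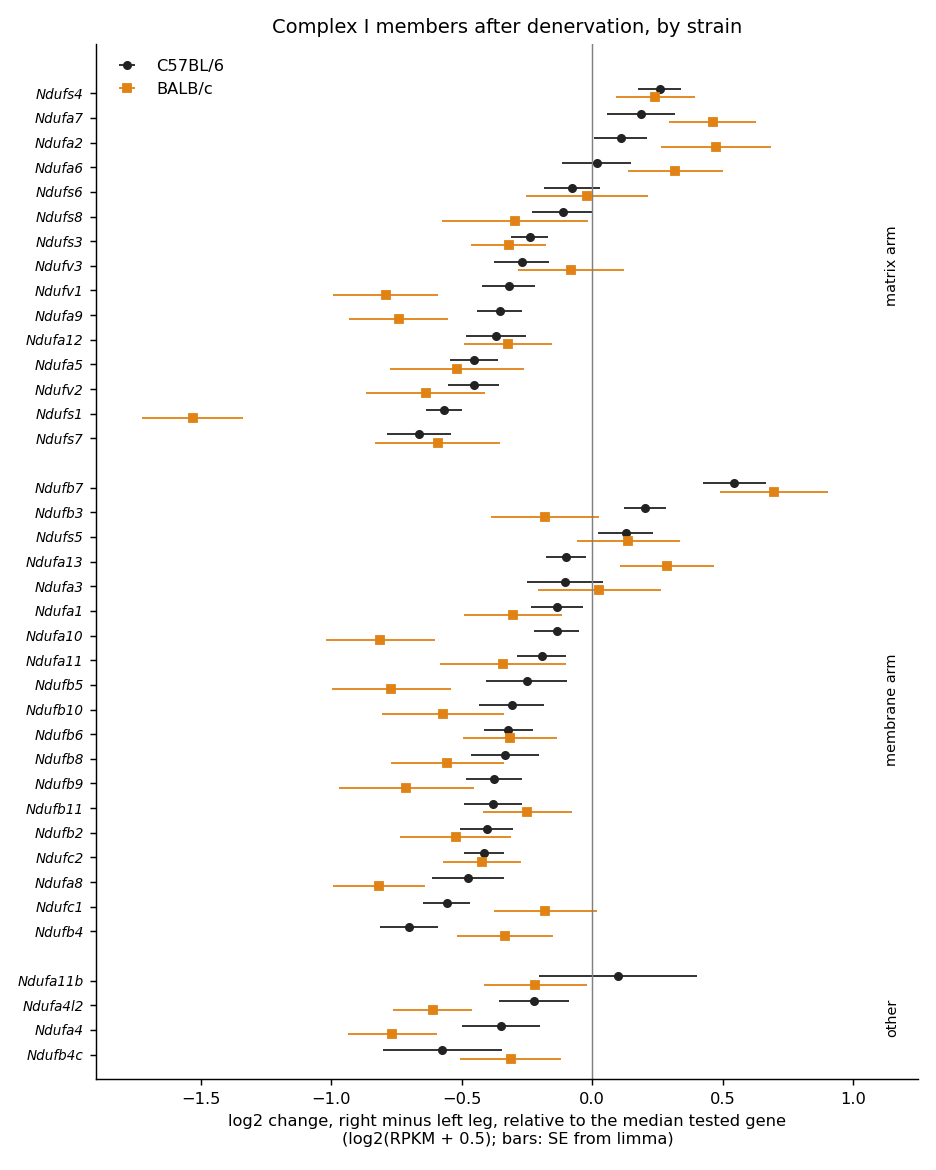
Change of the members named on the axis, right minus left leg, relative to the median tested gene of its strain on the log2(RPKM + 0.5) scale, with limma SE bars. Circles are C57BL/6 and squares BALB/c. Most points lie left of 0, Ndufb7 lies farthest right in both strains, and Ndufs1 in BALB/c lies farthest left.

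Counts of called members have to be read against all genes, because the median-of-ratios factors lower the right legs against the left by 0.72 in C57BL/6 and 0.53 in BALB/c for every gene on the log2 scale (before the 0.5 is added) and so move all counts the same way. In C57BL/6 as deposited, 15 members were called higher, where 63.6% of all tested genes were, and 0 were called lower, where 8.56% were (limma; 0 lower also at an unadjusted p under 0.05 and by limma-voom on recovered reads). After median-of-ratios scaling 1 member was called higher and 28 lower, where 28.2% of all tested genes were higher and 26.4% lower. With the same factors taken within 10 classes of transcript length, added after the length pattern was seen, 1 was higher and 33 lower (28.5% and 27.2% of all genes). Legs did not overlap for 16 members higher and 0 lower as deposited (66.2% and 9.57% of all genes), and for 1 higher, Ndufb7, and 27 lower after the median of each library was subtracted (27% and 40.8%).

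In BALB/c as deposited, 6 members were called higher, where 42.5% of all tested genes were, and 2 lower, Ndufs1 among them, where 7.67% were. After median-of-ratios scaling 9 were called lower (19% of all genes). None was called higher (21.8% of all genes; limma, also 0 at an unadjusted p under 0.05, and 0 by limma-voom with 1 at an unadjusted p). Within the 10 length classes 30 were lower and 0 higher (20.3% and 21.1%). Without right library 2, 6 were higher and 14 lower as deposited (45.9% and 7.17% of all genes), and 0 higher and 29 lower after median-of-ratios scaling (20% and 17.3%). The median relative change was then -0.58. Without right library 3, 1 member was called lower as deposited and 4 after median-of-ratios scaling (6.04% and 13.2% of all genes). Without left library 3, 3 members were called higher as deposited (34.2% of all genes). Legs did not overlap for 7 members higher and 4 lower as deposited, among them Ndufa4, Ndufa8 and Ndufs1 (48.1% and 10.4% of all genes), and for 2 higher, Ndufa7 and Ndufb7, and 12 lower after the median of each library was subtracted (27.7% and 30.4%).

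**Figure D2:**
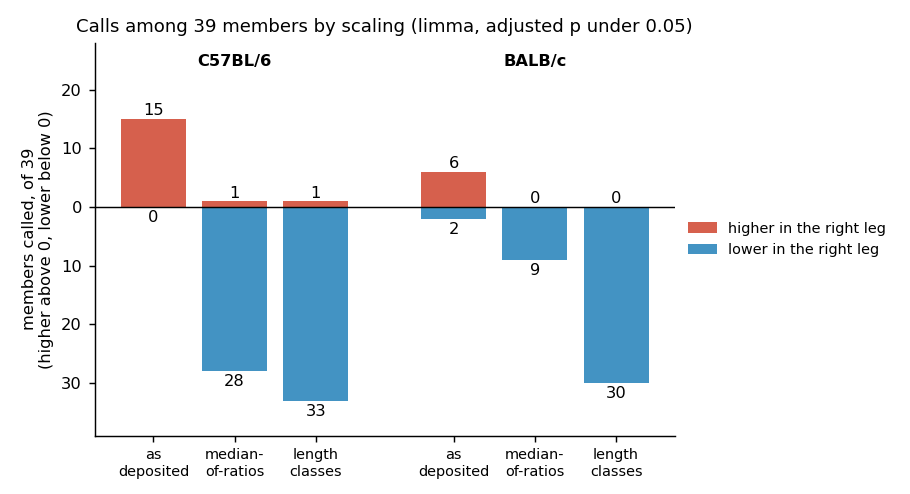
Number of the 39 members called by limma at an adjusted p under 0.05, higher (bars above 0) or lower (bars below 0) in the right leg, for each strain as deposited, after median-of-ratios scaling and with those factors taken within 10 classes of transcript length. C57BL/6 turns from 15 higher and 0 lower to 1 higher and 33 lower, and BALB/c from 6 higher and 2 lower to 0 higher and 30 lower.

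By library, the member median minus the mean of the left legs was 0.23, 0.31 and 0.20 in the C57BL/6 right libraries, against -0.15, 0.0029 and 0.14 in the left. All tested genes gave 0.51, 0.55 and 0.51 in the same right libraries, so the member value lay below that of all tested genes in each. In BALB/c the member medians were -0.18, 0.35 and -0.11 in the right libraries, against -0.085, 0.12 and -0.062 in the left. All tested genes gave 0.42, 0.28 and 0.43 in those right libraries. Right library 2 was the only one of the 6 right libraries in which the member value lay above that of all tested genes. The members made up 1.81%, 1.91% and 1.73% of all RPKM in the C57BL/6 right legs, against 1.35%, 1.54% and 1.62% in the left. In BALB/c they made up 1.22%, 1.60% and 1.31% in the right legs, against 1.37%, 1.76% and 1.40% in the left. The legs of C57BL/6 do not overlap in this share and those of BALB/c do.

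**Figure D3:**
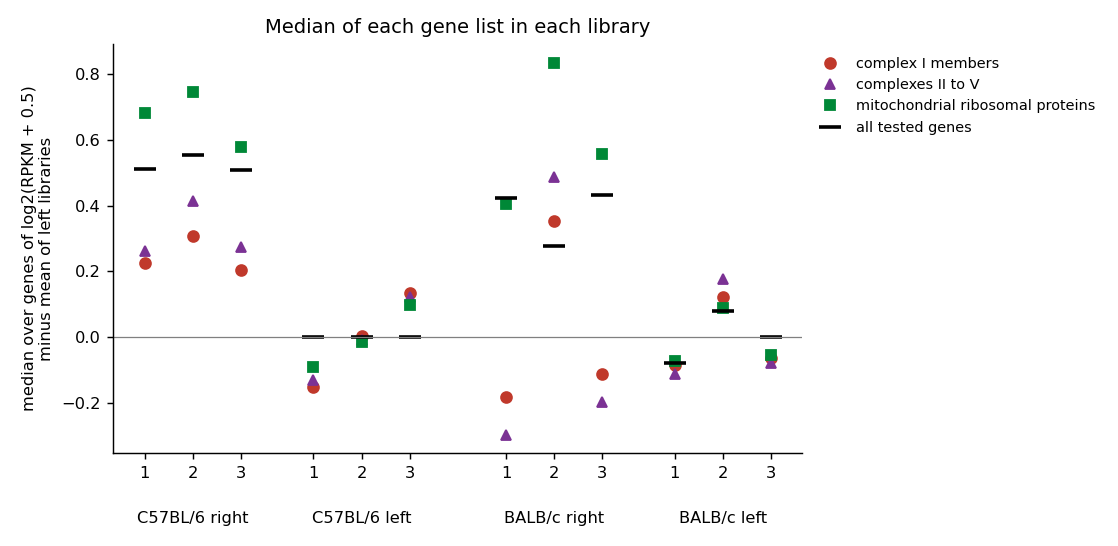
Median over genes of log2(RPKM + 0.5) minus its mean in the left legs, for each of 12 libraries, for complex I members, complexes II to V, mitochondrial ribosomal proteins and all tested genes, right legs before left within each strain. In the 3 C57BL/6 right libraries the complex I points (0.20 to 0.31) lie under the bars of all tested genes (0.51 to 0.55), and BALB/c right library 2 (0.35) stands above right libraries 1 and 3.

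Among the core subunits of the NADH-oxidising tip of the matrix arm, Ndufv1 carries the flavin and the NADH site, Ndufv2 an iron-sulfur cluster, and Ndufs1, the largest subunit, several clusters. Ndufs1 (mm9, chromosome 1, 63190166 to 63223396, minus strand), which overlaps Ino80dos in a count that did not use strand, had 75.1, 82.6 and 80.4 RPKM in the right legs, against 78.7, 84.6 and 82.2 RPKM in the left legs of C57BL/6. It had 39.4, 53.7 and 36.6 RPKM in the BALB/c right legs, against 89.9, 116 and 83.1 RPKM in the BALB/c left legs. The legs overlapped in C57BL/6, and in BALB/c each right library lay below each left one. The log2 change of Ndufs1 was -0.044 ± 0.069 in C57BL/6 (adjusted p = 0.587) and -1.15 ± 0.19 in BALB/c (adjusted p = 0.00167), and after median-of-ratios scaling it was -0.76 and -1.67, called lower in both. Without BALB/c right library 2 the BALB/c change was -1.32 (adjusted p = 0.00129).

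Ndufv1 had 117, 138 and 131 RPKM in the right legs, against 98.9, 115 and 120.4 RPKM in the left legs of C57BL/6. It had 94.3, 141 and 96.3 RPKM in the BALB/c right legs, against 131, 173 and 135 RPKM in the BALB/c left legs, where right library 2 lay among the left legs and the other 2 right libraries below them. Its log2 change was 0.20 in C57BL/6 and -0.41 in BALB/c, neither called as deposited (adjusted p = 0.109 and 0.119), and -0.52 and -0.94 after median-of-ratios scaling, both called lower. Without BALB/c right library 2 its change as deposited was -0.60 (adjusted p = 0.0178), and with a common sum over all libraries it was -0.63 (adjusted p = 0.0298). Ndufv2 had 192, 194 and 167 RPKM in the right legs, against 163, 171 and 192 RPKM in the left legs of C57BL/6, and 108, 199 and 121 RPKM in the BALB/c right legs, against 169, 170.3 and 156 RPKM in the BALB/c left legs. The legs of C57BL/6 overlapped, and in BALB/c right library 2 was the highest of the 6 while the other 2 right libraries were the lowest. Its log2 change was 0.068 and -0.26 in the 2 strains, not called, and -0.53 in BALB/c without right library 2 (adjusted p = 0.0113).

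Ndufs7, a core subunit that carries the iron-sulfur cluster next to the ubiquinone site, had a relative change of -0.67 in C57BL/6 and -0.59 in BALB/c. It had 313, 383 and 309 RPKM in the right legs, against 333, 358 and 419 RPKM in the left legs of C57BL/6, and 304, 530.4 and 313 RPKM in the BALB/c right legs, against 402, 483 and 407 RPKM in the BALB/c left legs. In BALB/c right library 2 was the highest of the 6 and right libraries 1 and 3 the lowest, and the C57BL/6 legs overlapped. Its log2 change was -0.14 and -0.22, not called in either strain as deposited, and -0.48 in BALB/c without right library 2 (adjusted p = 0.0332).

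Ndufs3, a scaffold of the ubiquinone module, and Ndufs8, which carries iron-sulfur clusters that lead to it, were the 2 core subunits called higher in C57BL/6 as deposited and lower after median-of-ratios scaling. Ndufs3 had 141, 137 and 138 RPKM in the right legs, against 107, 114 and 121 RPKM in the left legs of C57BL/6, and 136, 158 and 137 RPKM in the BALB/c right legs, against 125, 154 and 136 RPKM in the BALB/c left legs. The C57BL/6 legs did not overlap, while the BALB/c legs overlapped. Its log2 change in C57BL/6 was 0.28 ± 0.071 as deposited (adjusted p = 0.00828) and -0.43 after median-of-ratios scaling (adjusted p = 0.00191), and it was 0.057 in BALB/c (adjusted p = 0.764). Ndufs8 had 191, 219 and 181 RPKM in the right legs, against 131, 146 and 169 RPKM in the left legs of C57BL/6, and 144, 286 and 153 RPKM in the BALB/c right legs, against 155, 219 and 157 RPKM in the BALB/c left legs, with BALB/c right library 2 highest of its 6. Its log2 change in C57BL/6 was 0.41 (adjusted p = 0.0143, and 0.0585 with no filter on low genes) and -0.31 after median-of-ratios scaling. Over the 7 core subunits the median change was 0.068 in C57BL/6 and -0.26 in BALB/c, and all 7 changes lay below that of the median tested gene in each strain. In BALB/c right libraries 1, 2 and 3 the core median minus the mean of the left legs was -0.61, 0.20 and -0.45. After median-of-ratios scaling 7 of 7 were called lower in C57BL/6, where 26.4% of all tested genes were, and 3 of 7 in BALB/c, where 19% were.

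Accessory subunits of the matrix arm held several of the members that stood highest. Ndufs4, an assembly-critical accessory subunit of the NADH module whose loss in mice gives a Leigh-like encephalopathy, had 97.3, 88.1 and 87.8 RPKM in the right legs, against 48.4, 55.2 and 54.9 RPKM in the left legs of C57BL/6. It had 79.2, 84.5 and 64.0 RPKM in the BALB/c right legs, against 50.2, 53.1 and 43.8 RPKM in the BALB/c left legs. The legs did not overlap in either strain. Ndufs4 was called higher as deposited in both, by 0.78 ± 0.082 in C57BL/6 (adjusted p = 9.94e-05) and 0.62 ± 0.15 in BALB/c (adjusted p = 0.0102, 0.0513 without left library 3 and 0.103 with a common sum), while after median-of-ratios scaling its changes of 0.065 and 0.098 were not called, and within length classes they were -0.020 and -0.13.

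Ndufa7, an accessory subunit of the ubiquinone module, had 391, 353 and 320.2 RPKM in the right legs, against 185, 215 and 253 RPKM in the left legs of C57BL/6, and 312, 442 and 370.5 RPKM in the BALB/c right legs, against 203, 209 and 210.3 RPKM in the BALB/c left legs. Each right library lay above each left one in both strains, by a log2 change of 0.71 in C57BL/6 and 0.84 in BALB/c as deposited (adjusted p = 0.00183 and 0.00387), and -0.010 and 0.31 after median-of-ratios scaling, not called. Ndufa6, which anchors the acyl carrier protein Ndufab1 to the matrix arm, had 437, 413 and 366 RPKM in the right legs, against 231, 297 and 312 RPKM in the left legs of C57BL/6, and 333, 463 and 363 RPKM in the BALB/c right legs, against 211, 268 and 232 RPKM in the BALB/c left legs. It was called higher as deposited in both strains, by 0.54 and 0.69, with an adjusted p in BALB/c of 0.0137 that was 0.0583 without left library 1, 0.0543 without left library 3 and 0.0624 with all libraries set to a common sum. Scaled by median-of-ratios it changed by -0.18 and 0.17, not called. Ndufa2, a thioredoxin-like subunit that overlaps Tmco6, had 228, 224 and 202 RPKM in the right legs, against 126, 138 and 158 RPKM in the left legs of C57BL/6, and 138, 239 and 152 RPKM in the BALB/c right legs, against 91.9, 96.5 and 95.7 RPKM in the BALB/c left legs. Its legs did not overlap in either strain, and BALB/c right library 2 stood well above the other 2 right libraries. Its log2 change was 0.63 in C57BL/6 and 0.85 in BALB/c as deposited, called in both (in BALB/c adjusted p = 0.0106, and 0.0578 with no filter on low genes), and -0.086 and 0.33 after median-of-ratios scaling, called in neither.

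In the membrane arm, Ndufb7, an accessory subunit on the intermembrane side with a paired-cysteine fold, had the highest change of any member in both strains. Ndufb7 (mm9, chromosome 8, 86090657 to 86095522, plus strand) had 593, 580.4 and 492 RPKM in the right legs, against 233, 261 and 301 RPKM in the left legs of C57BL/6. It had 545, 838 and 598 RPKM in the BALB/c right legs, against 271, 333 and 324 RPKM in the BALB/c left legs. The lowest right library lay well above the highest left one in each strain. The log2 change of Ndufb7 was 1.07 ± 0.12 in C57BL/6 (adjusted p = 0.000151) and 1.07 ± 0.21 in BALB/c (adjusted p = 0.00330), and 0.89 in BALB/c without right library 2. After median-of-ratios scaling it was 0.35 in C57BL/6 (adjusted p = 0.0382), the only member then called higher, a call kept in 2 of 6 fits that left out 1 library and lost without left library 1 or 2 or right library 1 or 2 (adjusted p up to 0.126), and 0.55 in BALB/c (adjusted p = 0.120).

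A ratio of 2 members within a library is unaffected by any single factor applied to that library. Ndufb7 over Ndufs1 was 7.89, 7.03 and 6.12 in the C57BL/6 right legs, against 2.96, 3.08 and 3.67 in the left. In BALB/c the ratio was 13.8, 15.6 and 16.4 in the right legs, against 3.01, 2.86 and 3.90 in the left. The left legs of the strains overlapped, the right legs lay above them in both, and the BALB/c right legs lay above those of C57BL/6, with right library 2 inside the range of its group. Factors by length class do move it, since the transcripts differ in length: the change of Ndufb7 minus that of Ndufs1 was 1.11 as deposited and 0.98 within length classes in C57BL/6, and 2.23 and 1.76 in BALB/c. This pair was chosen after its values were seen and was not tested.

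**Figure D4:**
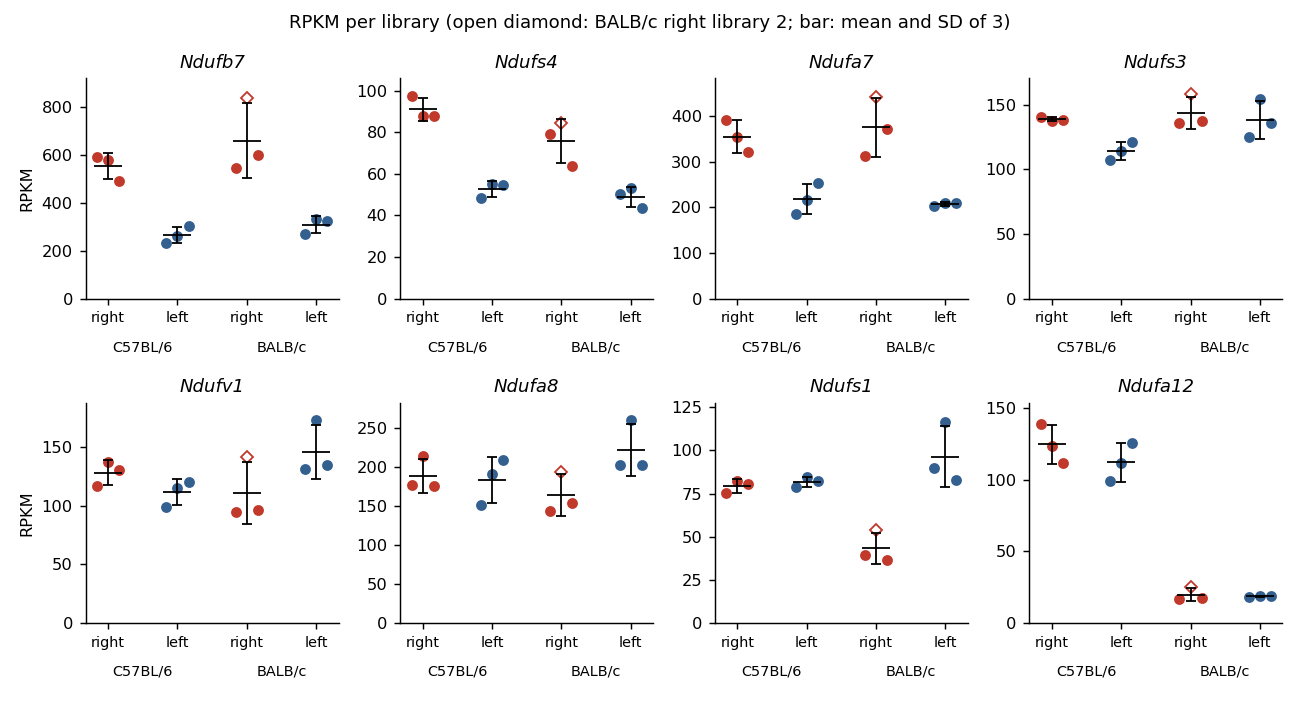
RPKM of 8 of the members in every library, right legs left of left legs within each strain, with the mean and SD of 3 libraries; the open diamond is BALB/c right library 2. Ndufb7, Ndufs4 and Ndufa7 lie higher in the right legs of both strains, Ndufs1 and Ndufa8 lie lower in the BALB/c right legs and overlap in C57BL/6, and Ndufa12 lies near 20 RPKM in BALB/c (means 19.7 and 18.6) and at 99.0 to 139 RPKM in C57BL/6.

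Ndufb3, a small membrane-arm subunit, and Ndufb4, a neighbour in the same arm, stood near opposite ends of the C57BL/6 changes. Ndufb3 had 111, 113 and 114 RPKM in the right legs, against 63.5, 66.2 and 74.7 RPKM in the left legs of C57BL/6, and 72.5, 101 and 74.1 RPKM in the BALB/c right legs, against 60.9, 92.4 and 64.2 RPKM in the BALB/c left legs. Its C57BL/6 right legs lay close together and far above the left (log2 change 0.73 ± 0.079, adjusted p = 0.000119; 0.0084 and not called after median-of-ratios scaling), and its BALB/c legs overlapped (log2 change 0.20, adjusted p = 0.461). Ndufb4, whose promoter holds 3 NRF1 matches, had 208, 196 and 167 RPKM in the right legs, against 198, 209 and 239 RPKM in the left legs of C57BL/6, and 176, 262 and 205 RPKM in the BALB/c right legs, against 231, 193 and 195 RPKM in the BALB/c left legs. Its legs overlapped in both strains. Its log2 change in C57BL/6 was -0.18 ± 0.11, the lowest of the expressed members (adjusted p = 0.185), and -0.90 after median-of-ratios scaling (adjusted p = 0.000324), while in BALB/c it was 0.043 and -0.48, not called.

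Ndufa8, a cysteine-rich subunit of the intermembrane side, and Ndufa10, a kinase-like subunit on the matrix side of the membrane arm that overlaps Mir6900, were among the lowest in BALB/c. Ndufa8 had 143, 194 and 153 RPKM in the BALB/c right legs, against 202, 259.9 and 203 RPKM in the BALB/c left legs, without overlap, and 177, 214 and 176 RPKM in the right legs, against 151, 191 and 209 RPKM in the left legs of C57BL/6, which overlapped. Ndufa10 had 116, 166 and 117 RPKM in the BALB/c right legs, against 159, 225 and 155 RPKM in the BALB/c left legs, where right library 2 lay among the left legs, and 157, 182 and 169 RPKM in the right legs, against 121, 129.6 and 137 RPKM in the left legs of C57BL/6, where each right library was above each left one. In BALB/c the log2 changes of Ndufa8 and Ndufa10 were -0.44 and -0.43, not called as deposited (adjusted p = 0.0706 and 0.120), and called without right library 2 (-0.57 and -0.61), with a common sum (-0.66 and -0.65) and after median-of-ratios scaling (-0.96 and -0.96). In C57BL/6 Ndufa10 was called higher as deposited, by 0.39, and lower after median-of-ratios scaling, at -0.33.

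The 2 expressed members that are not complex I subunits behaved within the range of the others. Ndufa4, which copurified with complex I and is now placed in cytochrome c oxidase, had 642, 669 and 590.3 RPKM in the right legs, against 446, 600.01 and 659 RPKM in the left legs of C57BL/6, and 247, 337 and 247 RPKM in the BALB/c right legs, against 358, 372 and 347 RPKM in the BALB/c left legs. The BALB/c legs did not overlap and the C57BL/6 legs did (log2 change 0.17 in C57BL/6 and -0.39 in BALB/c, adjusted p = 0.325 and 0.0946; in BALB/c -0.54 without right library 2 and -0.61 with a common sum, called in both). Ndufa4l2, a hypoxia-induced paralogue that overlaps Shmt2, had 7.44, 10.4 and 9.69 RPKM in the right legs, against 6.45, 7.70 and 7.78 RPKM in the left legs of C57BL/6, and 12.3, 10.8 and 10.4 RPKM in the BALB/c right legs, against 11.1, 14.4 and 14.4 RPKM in the BALB/c left legs, and was called in neither strain as deposited (adjusted p = 0.0808 and 0.234). After median-of-ratios scaling both genes were called lower in both strains. Without these 2 and the near-zero copies, the 35 subunits gave 15 higher and 0 lower in C57BL/6 and 6 higher and 2 lower in BALB/c as deposited, and 1 higher and 26 lower in C57BL/6 and 0 higher and 7 lower in BALB/c after median-of-ratios scaling, against 63.6% and 8.56% of all genes in C57BL/6 and 42.5% and 7.67% in BALB/c as deposited, and 28.2% and 26.4%, and 21.8% and 19%, after that scaling.

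The 2 arms were described as groups. The matrix arm had a median relative change of -0.30 in C57BL/6 and -0.32 in BALB/c, and the membrane arm of -0.31 and -0.33. As deposited, 7 of 16 matrix-arm subunits were called higher and 0 lower in C57BL/6, and 4 higher and 2 lower in BALB/c. In the membrane arm 8 of 19 were called higher and 0 lower in C57BL/6, and 2 higher and 0 lower in BALB/c. Of all tested genes, 63.6% were called higher and 8.56% lower in C57BL/6, and 42.5% and 7.67% in BALB/c. After median-of-ratios scaling the matrix arm had 0 higher and 11 lower in C57BL/6, and 0 and 4 in BALB/c. The membrane arm then had 1 higher and 15 lower in C57BL/6, and 0 and 3 in BALB/c. With that scaling 28.2% of all tested genes were higher and 26.4% lower in C57BL/6, and 21.8% and 19% in BALB/c. No difference between the arms was tested. The 18 members with transcripts under 700 bases had a median change of 0.23 in C57BL/6 and 0.14 in BALB/c, and the 19 longer ones of 0.20 and -0.22, and in BALB/c without right library 2 the medians were -0.041 and -0.39. The rank correlation of change with transcript length over those 37 members was -0.13 in C57BL/6 and -0.49 in BALB/c, against -0.16 and -0.29 over all expressed genes, as a description. In BALB/c without right library 2 it was -0.48 over the members and -0.21 over all expressed genes.

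To compare the strains, the C57BL/6 change was subtracted from the BALB/c change in 1 limma fit of 12 libraries. As deposited, 1 member was called lower, Ndufs1, where 4.33% of 14165 genes were, and 0 were called higher, where 1.76% were (limma; 0 higher also at an unadjusted p under 0.05 and by limma-voom, and 9 lower at an unadjusted p). The difference of Ndufs1 was -1.11 ± 0.21 (adjusted p = 0.0150), from a change of -1.15 in BALB/c and -0.044 in C57BL/6, and -0.91 after median-of-ratios scaling (adjusted p = 0.0425). After that scaling Ndufs1 was again the only member called (3.49% of all genes lower and 3.71% higher), and with 1 library left out as well it was called in 2 of 12 fits, those without BALB/c left library 3 and without BALB/c right library 2. Within length classes 5 members were lower, namely Ndufs1, Ndufa10, Ndufa4, Ndufb3 and Ndufa8, and 0 were higher (4.53% and 4.84% of all genes). Without BALB/c right library 2, 8 members were lower, among them Ndufs1, Ndufa10, Ndufb5, Ndufv1, Ndufb9, Ndufa9 and Ndufv2, and 0 were higher (5.54% and 3.57%), and after median-of-ratios scaling 7 were lower and 0 higher (5.05% and 5.03%). The difference of Ndufa10 was -0.82 ± 0.24 (adjusted p = 0.0615). Ndufb7 differed by 0.0060 ± 0.24, and a p that misses the threshold does not show that the strains changed alike.

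Other genes of the pathway were counted in the same fits. Of 20 listed assembly factors, 19 were measured, and as deposited 11 were called higher and 2 lower in C57BL/6 and 6 higher and 4 lower in BALB/c. After median-of-ratios scaling 4 were higher and 10 lower in C57BL/6, and 4 higher and 8 lower in BALB/c. Of all tested genes, 63.6% were called higher and 8.56% lower in C57BL/6 and 42.5% and 7.67% in BALB/c as deposited, and 28.2% and 26.4%, and 21.8% and 19%, after that scaling. Ndufaf5, which modifies the core subunit Ndufs7 during assembly, fell furthest in both strains under both scalings. It had 4.95, 6.65 and 5.21 RPKM in the C57BL/6 right legs, against 12.5, 17.5 and 17.2 RPKM in the left (log2 change -1.41 ± 0.16, adjusted p = 0.000140). In BALB/c it had 3.87, 5.35 and 3.72 RPKM in the right legs, against 9.43, 9.25 and 8.94 RPKM in the left (log2 change -1.03 ± 0.16, adjusted p = 0.00128). Legs did not overlap in either strain. Ndufaf2, an assembly factor related to Ndufa12, was the highest called in C57BL/6, with 28.9, 25.4 and 26.6 RPKM in the right legs, against 10.4, 8.95 and 9.22 RPKM in the left (log2 change 1.46 ± 0.086, adjusted p = 7.56e-06). Lyrm2, an assembly factor of the LYR family, was the highest called in BALB/c, with 17.9, 22.3 and 23.2 RPKM in the right legs, against 7.49, 7.45 and 7.76 RPKM in the left (log2 change 1.42 ± 0.14, adjusted p = 0.000153). Both stayed called higher after median-of-ratios scaling. Ndufab1, the acyl carrier subunit that the symbol rule leaves out, changed by 0.37 in C57BL/6, called higher, and by -0.30 in BALB/c, not called, and after median-of-ratios scaling by -0.34 and -0.82, called lower in both.

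Complexes II to V, the rest of the respiratory chain with ATP synthase, and the mitochondrial ribosome were read beside complex I. Of 46 tested genes of complexes II to V, 27 were called higher and 1 lower in C57BL/6 and 4 higher and 6 lower in BALB/c as deposited, and 2 higher and 32 lower in C57BL/6 and 1 higher and 17 lower in BALB/c after median-of-ratios scaling. Their median relative change was -0.20 in C57BL/6 and -0.34 in BALB/c. In BALB/c right libraries 1, 2 and 3 their median minus the mean of the left legs was -0.30, 0.49 and -0.20. Of 78 mitochondrial ribosomal proteins, 72 were called higher and 1 lower in C57BL/6 and 50 higher and 1 lower in BALB/c as deposited, and 18 higher and 23 lower in C57BL/6 and 13 higher and 7 lower in BALB/c after median-of-ratios scaling. Their median relative change was 0.13 in C57BL/6 and 0.21 in BALB/c, above that of the complex I members in each, and after median-of-ratios scaling it was -0.054 and 0.061. Within length classes it was -0.14 and -0.23, against -0.62 and -0.91 for the complex I members. In BALB/c right libraries 1, 2 and 3 the ribosomal median minus the mean of the left legs was 0.40, 0.83 and 0.56. All tested genes gave 0.42, 0.28 and 0.43 there. Over all tested genes, 63.6% were called higher and 8.56% lower in C57BL/6 and 42.5% and 7.67% in BALB/c as deposited, and 28.2% and 26.4% in C57BL/6 and 21.8% and 19% in BALB/c after median-of-ratios scaling. These are counts and medians of lists, and no difference between lists was tested.

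Levels of the subunits, compared between genes per length in RPKM, spanned a wide range. In the C57BL/6 left legs Ndufb9, an outer subunit of the membrane arm, had the highest level, at 654 ± 60.3 RPKM, and Ndufa11, at 36.5 ± 3.03 RPKM, the lowest. In the right legs these 2 again held the ends, at 724 and 46.1 RPKM. In BALB/c Ndufb9 was highest in the left legs, at 614 ± 63.5 RPKM, and the right legs were led by Ndufb7, at 660 ± 156 RPKM, with Ndufb9 behind it at 505 ± 186 RPKM, a gap within their SDs. Ndufa12, an accessory subunit of the matrix arm taken up after its values were seen, had the lowest level of the 35 in BALB/c. It had 16.9, 25.0 and 17.2 RPKM in the BALB/c right legs, against 18.2, 18.9 and 18.8 RPKM in the BALB/c left legs, a log2 change of 0.054 (adjusted p = 0.812). In C57BL/6 it had 139, 123 and 112 RPKM in the right legs, against 99.0, 112 and 126 RPKM in the left legs, a log2 change of 0.15 (adjusted p = 0.262). The legs overlapped in both strains, and the strains stood far apart. Between the left legs the BALB/c level was -2.55 from the C57BL/6 level on the log2 scale, and between the right legs -2.65, where the median gene was at 0.11 and 0.036. Of 9286 genes with both levels in the left legs, 3 lay lower. Because the tables were normalized separately, this difference was not tested. RefSeq lists a pseudogene, Ndufa12-ps, and whether it shares reads with Ndufa12 was not tested.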

How the data were processed

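Poly(A) RNA of 12 libraries was analysed from 2 tables, 1 per strain. The authors deposited RPKM values; per the file headers, exon reads from either strand were counted by HOMER against mm9, with 1 transcript kept for each gene, and the column names say FPKM. The submitters' processing notes name HISAT2, HOMER, DESeq2, GRCm38 and mm10 without roles; which one the reads were aligned to was not given in the sources used here. Gene positions are mm9 as in the files, and promoters come from RefSeq (GRCm38.p6). Of the 39 members, 38 had the same transcript in both tables; Ndufa5 did not. Groups were strain and leg from the labels. For the BALB/c libraries titled 3 the column code has another number, which is the same in both legs, and title numbers are used.

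Genes averaging 0.1 RPKM or more were tested on log2(RPKM + 0.5) with limma 3.58.1 (lmFit, eBayes with a trend, two-sided; R 4.3.3), adjusted by Benjamini-Hochberg over the tested genes, 14551 in C57BL/6 and 14819 in BALB/c. Values times transcript length and library total gave whole reads (within 0.1 read) for 99.8% to 100% of values, and 14826942 to 17323385 reads lay in listed genes; limma-voom on those reads was an alternative. Other alternatives were pseudocounts of 0.1 and 1, no filter or 1 RPKM, median-of-ratios factors, a common sum, no trend, a replicate block and leaving out each library; median-of-ratios factors within 10 classes of transcript length, and together with left-out libraries, were added after the data were seen. The code was tested on simulated data. Full values follow a rule that took the core subunits, the 4 highest and 4 lowest changes in each strain among members of at least 1 RPKM, up to 6 members with the largest called difference between strains, Ndufa4 and Ndufa4l2, and the highest and lowest called assembly factor. The values of 1 member are not reported here, although counts and medians include it. The members and lists were chosen with earlier results of these data known. Overlapping genes share reads because strand was not used. Tables and figures were made with Python 3.11.15, pandas 2.3.3 and matplotlib 3.10.9.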

Additional observations from a re-analysis of the deposited data

Results flagged for a closer look

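The change of Ndufs1 differed between the strains: its change in BALB/c less its change in C57BL/6 was -1.11 ± 0.21 on the log2 scale in limma (adjusted p = 0.0150), from 43.2 ± 9.21 RPKM in the right and 96.5 ± 17.5 RPKM in the left legs of BALB/c and 79.4 ± 3.83 RPKM in the right and 81.8 ± 2.997 RPKM in the left legs of C57BL/6 (SD, n = 3 libraries each). It kept its direction and its call under each of the 23 alternatives run on the deposited scale or another, with values from -1.33 to -0.90 and adjusted p-values up to 0.0460. With median-of-ratios factors and 1 library left out, it kept its direction and was called in 2 of 12 fits, with adjusted p-values up to 0.106.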

How the results depend on the processing

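The median-of-ratios factors shift every gene by -0.72 in C57BL/6 and -0.53 in BALB/c, right against left, so the counts turn by construction. Called higher and lower in C57BL/6, 15 and 0 members as deposited became 1 and 28 with median-of-ratios factors, 1 and 29 with limma-voom on those factors and 1 and 33 within 10 length classes. Of all 14551 tested genes there, 9258 and 1246 became 4106 and 3840, 4119 and 3983, and 4141 and 3954 under the same settings. In BALB/c, 6 and 2 members became 0 and 9, 0 and 16 and 0 and 30, and 3 and 8 with a common sum. Of all 14819 tested genes there, 6302 and 1136 became 3225 and 2818, 3200 and 3066, and 3129 and 3002, and 3948 and 1242 with a common sum. For the difference between strains 1 member lower became 6 with a common sum, 2 with limma-voom and 5 within 10 length classes. Of all 14165 genes compared, 613 lower became 819, 649 and 641 under those settings. Leaving out 1 library gave 13 to 18 members higher and 0 lower in C57BL/6, 3 to 7 higher and 1 to 14 lower in BALB/c, and 1 to 8 lower for the difference. Over all tested genes those fits gave 8595 to 9101 higher and 1099 to 1193 lower, 5086 to 6779 higher and 857 to 1085 lower, and 226 to 1028 lower. On median-of-ratios values the members gave 0 to 1 higher and 22 to 31 lower, 0 higher and 4 to 29 lower, and 0 to 7 lower. All tested genes then gave 3521 to 3822 higher and 3298 to 3589 lower, 2303 to 2951 higher and 1949 to 2551 lower, and 134 to 714 lower. The replicate numbers were not taken as pairs, and the labels do not say whether same-numbered libraries share a mouse. Such libraries correlated at 0.18, 0.10 and 0.0073 in C57BL/6 and 0.010, 0.066 and 0.24 in BALB/c, all 6 positive and 3 over 0.1. Of 6 right libraries, 4 correlated best with their own number. With the numbers as a block in limma, 5 members were lower in BALB/c, where 1058 of 14819 genes were. Ndufa8, Ndufa10 and Ndufv1 were among them (adjusted p = 0.0373, 0.0353 and 0.0438). In the difference 3 were then lower, where 520 of 14165 genes were, and Ndufa4l2 was called in C57BL/6 (adjusted p = 0.0230).

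The C57BL/6 median relative change of -0.31 was -0.47 and -0.21 with pseudocounts of 0.1 and 1, -0.42 with the filter of 1 RPKM, -0.49 with median-of-ratios factors, -0.40 with a common sum, -0.52 with limma-voom on either scale, -0.62 within 10 length classes, and -0.39 to -0.22 with 1 library left out. With no filter it was 0.13, and in BALB/c 0.030, since genes near 0 then set the median gene. The BALB/c value of -0.32 was -0.91 within 10 length classes and -0.58 to -0.22 with 1 library left out.

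With median-of-ratios factors, on RPKM and with limma-voom alike, the sign of these C57BL/6 estimates turned negative, which for Ndufa2, Ndufa6 and Ndufa7 is not a call: Ndufa10 -0.33, Ndufa2 -0.086 and -0.087, Ndufa4 -0.55, Ndufa4l2 -0.38 and -0.40, Ndufa6 -0.18, Ndufa7 -0.010, Ndufa8 -0.67, Ndufs3 -0.43 and -0.44, Ndufs8 -0.31, Ndufv1 -0.52 and Ndufv2 -0.65. In BALB/c the signs that turned negative with those factors on RPKM were Ndufb3 -0.33, Ndufb4 -0.48, Ndufs3 -0.47 and Ndufs8 -0.44. None of the BALB/c ones was called on RPKM, and with limma-voom only Ndufs3 was (-0.47). Within 10 length classes the estimates that turned negative were Ndufa10 -0.45, Ndufa2 -0.22, Ndufa4 -0.68, Ndufa4l2 -0.49, Ndufa6 -0.31, Ndufa7 -0.14, Ndufa8 -0.81, Ndufb3 -0.12, Ndufs3 -0.55, Ndufs4 -0.020, Ndufs8 -0.44, Ndufv1 -0.60 and Ndufv2 -0.74 in C57BL/6, and Ndufa2 -0.13, Ndufa6 -0.29, Ndufa7 -0.14, Ndufb3 -0.78, Ndufb4 -0.94, Ndufs3 -0.82, Ndufs4 -0.13 and Ndufs8 -0.90 in BALB/c. The 37 expressed members held 117 reads or more in each library, while Ndufa11b and Ndufb4c held at most 9 and 4 reads, too few for their changes to be read.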
